A study of Mus musculus with 6 samples.

Results

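Wdfy1 (gene ID 69368), Mogat1 (68393) and Tmem198 (319998) are 3 protein-coding genes of mouse chromosome 1, of 13840 genes that a single symbol names on the array. Each has 1 probe of 33012. In the RefSeq table of GRCm38.p6 they run in the order Tmem198, Mogat1, Wdfy1, with 9 protein-coding genes between the first pair and 5 between the second. They were picked by gene symbol because signals of these genes had been seen to differ between wild-type testes and the testes of both Abcg8 knockout groups. That contrast therefore chose them, and every difference of these genes from wild-type below is a description without a test. RNA of whole testes from adult male mice, 10 to 12 weeks old and labelled as C57BL/6J in background, was hybridised to 1-colour arrays. The 6 arrays, 2 in each group, were labelled as Abcg8 knockout mice given 0.005% ezetimibe in chow, Abcg8 knockout mice on chow alone, and wild-type mice on chow alone. Abcg8 encodes an exporter of cholesterol and plant sterols, and ezetimibe is a drug that lowers intestinal sterol absorption. The knockout is carried by both of the first groups, so no array shows ezetimibe in wild-type mice. The labels do not say which part of Abcg8 was altered, nor that the 2 arrays of a group came from separate animals, so p-values measure the spread between these arrays, which may be technical.

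WDFY1 carries WD repeats and a FYVE domain, a fold that binds a phosphoinositide of early endosomes, and it is known as a partner of the adaptor TRIF downstream of the Toll-like receptors TLR3 and TLR4. MOGAT1 is a monoacylglycerol acyltransferase, which makes diacylglycerol on the way to triglyceride. TMEM198 is a membrane protein with several membrane-spanning segments, known from cultured human cells to promote phosphorylation of the Wnt co-receptor LRP6.

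The arrays differed in brightness. The median raw signal of an array was 258 to 678, lowest on wild-type replicate 2, the array titled M2, and 15371 to 16632 probes were detected, meaning a signal-to-noise value of at least 3. Signals are given below as deposited and as log2 values after quantile normalisation between arrays. Probes detected on both arrays of at least 1 group entered the tests, 16015 in all, among them Wdfy1 and Tmem198 but not Mogat1. The probe for Abcg8 itself was brighter on the arrays labelled knockout: its raw signal was 25697 and 24767 with ezetimibe and 20013 and 22134 in the knockout, against 1715 and 569 in wild-type. This goes against the direction of a loss of transcript. The sources used here do not place the probe, or any member's probe, within its gene. Knockout and wild-type are therefore the labels of the arrays throughout, and every direction below is drawn from those labels.

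The tissue was checked by the detection of marker genes. All 5 elongating spermatid genes, 4 round spermatid genes, 4 spermatocyte genes and 6 Leydig cell genes with a probe were detected on all 6 arrays, as were 4 of 7 Sertoli cell genes, 2 of 4 spermatogonia genes and 3 of 4 macrophage genes, with the Sertoli genes Amh and Gata4 and the macrophage gene Adgre1 detected on none. Of genes from other tissues, 0 of 4 liver genes and 3 of 5 epididymis genes were detected on all arrays, as were 2 of 6 nerve genes, and of 2 blood genes both were. Of 5 fat genes, 1 was detected on all arrays and 2 on none. Detection does not show that levels were alike. The 4 spermatogonia genes averaged 11.81 and 12.11 with ezetimibe, 12.01 and 11.78 in the knockout and 11.63 and 11.31 in wild-type (log2). In the same order the 6 Leydig genes averaged 13.46 and 13.50, 13.77 and 13.79, and 13.82 and 13.80. The blood gene Hba-a1 read 14.99 and 15.69, 18.29 and 17.26, and 15.93 and 15.91. Any bearing of this on the members was not tested.

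Wdfy1 was the member that separated both knockout-labelled groups from the wild-type-labelled group on every array. With ezetimibe the raw signal was 26915 and 20664, with the knockout label alone it was 27007 and 26448, and with the wild-type label it was 11698 and 3745. In the authors' deposited processed values, which are the raw signals divided by a constant close to each array's median, it read 46.3 and 33.7 with ezetimibe, 44.3 and 51.5 in the knockout and 17.3 and 14.5 in wild-type. All 4 knockout-labelled arrays lay above both wild-type arrays, on the bright arrays and beside the dim one alike. The probe was far above background throughout, with a signal-to-noise of 41.5 and 48.3 with ezetimibe, 57.6 and 54.7 in the knockout and 31.4 and 33.1 in wild-type.

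**Figure D1:**
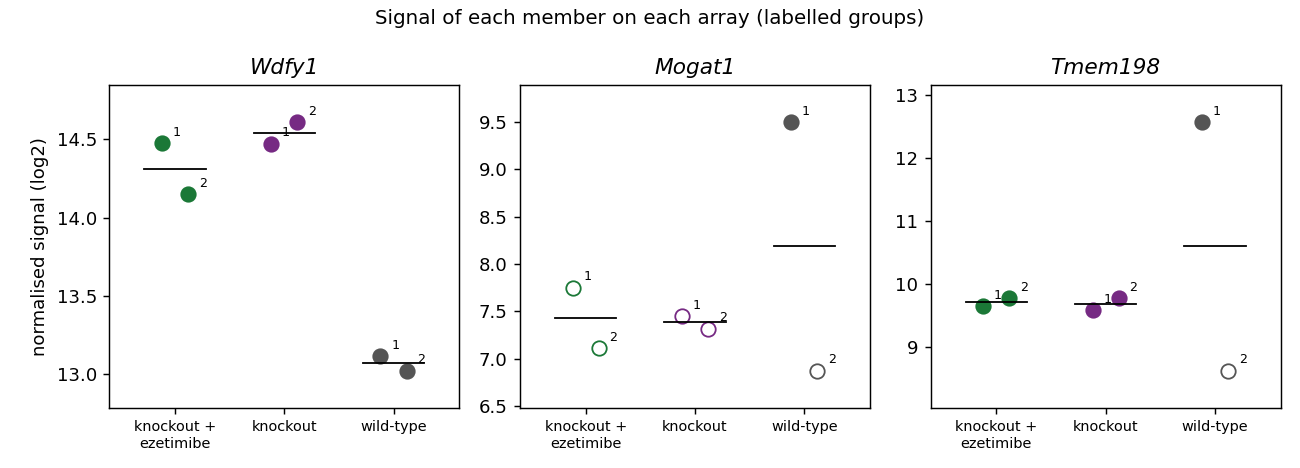
Normalised log2 signal of each member on each array, by labelled group, with the group mean as a line and the replicate number beside each point; open points were not detected. Wdfy1 lies at 14.15 to 14.61 on the 4 knockout-labelled arrays, above 13.02 and 13.11 on the wild-type arrays, while Mogat1 and Tmem198 are highest on wild-type replicate 1 and lowest on wild-type replicate 2.

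On the normalised log2 scale Wdfy1 averaged 14.31 ± 0.23 with ezetimibe, 14.54 ± 0.10 in the knockout and 13.07 ± 0.07 in wild-type (SD, n = 2 each). The ezetimibe-fed knockout minus wild-type difference was 1.25 log2 units (SE 0.14), or 2.37-fold, and the knockout minus wild-type difference was 1.48 (SE 0.14), or 2.78-fold. The 2 comparisons share the same wild-type arrays and are not independent of each other. The Wdfy1 difference was slightly smaller without the dim array, wild-type replicate 2, at 1.20 with ezetimibe and 1.43 without. It was slightly larger without wild-type replicate 1, at 1.29 and 1.52. In whole tissue, a difference in the number of cells of a type and a difference in RNA per cell cannot be told apart.

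Many other probes separated the groups in the same way. Of the 16015 probes, 9.61% had all 4 knockout-labelled arrays above both wild-type arrays, and 0.462%, or 74 probes with Wdfy1 among them, did so with a difference at least as large as that of Wdfy1. The limma fit called 0.0125% of probes in each of the 2 comparisons with wild-type, which is 2 probes each time and 1 of them Abcg8. Neither Wdfy1 nor Tmem198 was among them, and nothing is read from that, because these contrasts chose the members. With both knockout groups together limma also called 2 probes, 0.0125%.

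Ezetimibe within the knockout was the contrast that the choice of members did not use. Wdfy1 was lower with ezetimibe by 0.23 log2 units, a difference of -0.23 (SE 0.14, 95% interval -0.60 to 0.15, limma adjusted p = 0.913), which did not pass. The 4 arrays overlapped, since ezetimibe replicate 1 at 14.48 lay between the knockout arrays at 14.47 and 14.61, and ezetimibe replicate 2 at 14.15 lay below them. Tmem198 differed by 0.03 (SE 1.26, 95% interval -3.24 to 3.30, limma adjusted p = 0.998), an interval set by the spread of the wild-type arrays in the shared fit. Limma called 0 of 16015 probes in this contrast, 0% of the background, while 5.76% had an unadjusted p under 0.05, and neither member did. These intervals do not show that the diet left the members alike.

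The sequence upstream of the start is shown for Tmem198 and Mogat1, the members whose readings, given next, peaked together on wild-type replicate 1. RefSeq promoter windows of build GRCm38.p6 were at hand for 2 of 3 members, Tmem198 at chr1:75479282-75479531 and Mogat1 at chr1:78510810-78511059, both on the plus strand and covering the 250 bases before the gene start. The adjacent gene Chpf ends at base 75479471, so most of the Tmem198 window also lies within Chpf. Capitals mark matches to the letters searched, on both strands.
Tmem198: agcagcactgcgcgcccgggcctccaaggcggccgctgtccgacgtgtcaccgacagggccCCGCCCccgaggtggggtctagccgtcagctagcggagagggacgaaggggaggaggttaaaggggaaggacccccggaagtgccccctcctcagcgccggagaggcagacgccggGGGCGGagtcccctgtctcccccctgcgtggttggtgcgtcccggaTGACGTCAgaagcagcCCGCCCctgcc
Mogat1: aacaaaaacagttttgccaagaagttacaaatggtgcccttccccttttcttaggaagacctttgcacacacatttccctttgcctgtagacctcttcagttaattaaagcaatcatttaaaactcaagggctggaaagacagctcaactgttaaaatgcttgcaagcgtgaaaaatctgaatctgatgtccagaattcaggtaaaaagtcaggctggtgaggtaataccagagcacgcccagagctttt

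The windows had little in common. Tmem198 was 72.4% G and C with 24 CG dinucleotides and Mogat1 41.2% with 2, against medians of 52.4% and 6 over 32851 RefSeq windows of the same length. The Tmem198 window held 1 full cAMP response element (TGACGTCA), as did 1.55% of all windows, and 3 GC boxes (GGGCGG), a motif found in 32.7% of windows. The Mogat1 window matched neither of these. Neither window matched the CCAAT box (CCAAT), the TATA box (TATAAA) or the E box (CACGTG), which stood in 33.85%, 12.4% and 6.02% of all windows, and no match overlapped another. A match describes the letters of the window only.

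With all arrays, the mean difference of Tmem198 from wild-type had the opposite sign to that of Wdfy1, and this sign rested on 1 wild-type array. Raw signals of 921 and 1033 were read with ezetimibe and of 928 and 886 in the knockout, against 8098 and 209 in wild-type. Wild-type replicate 1 stood above all other arrays and wild-type replicate 2 below all of them, so the wild-type values enclosed those of both knockout groups. The probe was detected on 5 arrays, with a signal-to-noise of 7.73 and 3.95 with ezetimibe, 3.98 and 3.22 in the knockout and 19.9 and 2.59 in wild-type. The 4 knockout-labelled arrays agreed closely among themselves, at 9.72 ± 0.09 with ezetimibe and 9.69 ± 0.13 in the knockout on the log2 scale, against 10.60 ± 2.78 in wild-type (SD, n = 2 each).

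With all arrays, Tmem198 differed from wild-type by -0.88 log2 units with ezetimibe and by -0.91 in the knockout (SE 1.26 each), less than the spread of the wild-type arrays. Without wild-type replicate 2 the differences were -2.86 and -2.89, which is 7.26-fold and 7.42-fold lower. With replicate 1 left out instead they turned to 1.07 and 1.04, set against the undetected reading of replicate 2, so that no fold is given. The direction of Tmem198 between knockout and wild-type testes is therefore not settled by these arrays.

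Mogat1 was detected on 1 of 6 arrays, again wild-type replicate 1. Raw signals of 230 and 171 were read with ezetimibe and of 192 and 152 in the knockout, against 948 and 73.9 in wild-type. Signal-to-noise was 2.06 and 0.91 with ezetimibe, -0.57 and -0.03 in the knockout and 6.67 and -0.17 in wild-type, so that 5 arrays did not stand above background. Probes with a signal-to-noise between -1 and 1 had a median raw signal of 116 to 235 on an array, and the 5 dim Mogat1 readings lay between 73.9 and 230. With 1 of 2 wild-type arrays detected, neither a fold nor a bound of the group means is given for Mogat1.

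The normalised log2 mean of Mogat1 was 7.43 ± 0.45 with ezetimibe, 7.38 ± 0.09 in the knockout and 8.19 ± 1.85 in wild-type (SD, n = 2 each). The difference from wild-type was -0.76 with ezetimibe and -0.80 in the knockout. Without wild-type replicate 2 it was -2.14 and -2.19, and without wild-type replicate 1 it was 0.55 and 0.51, values taken between signals at background that give no fold. No level of Mogat1 could be set beside another in the ezetimibe contrast, where all 4 arrays were undetected.

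**Figure D2:**
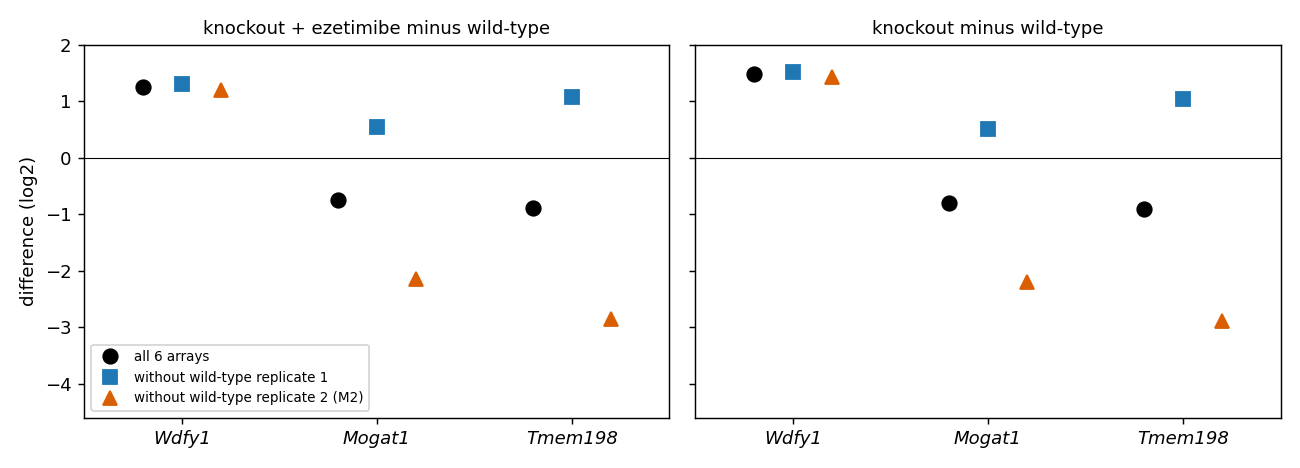
Difference from wild-type in log2 units for each member, for ezetimibe-fed knockout and for knockout testes, with all 6 arrays and with either wild-type replicate left out. Wdfy1 stays between 1.20 and 1.52 in all 6 cases, while Mogat1 and Tmem198 change sign when wild-type replicate 1 is left out.

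Of the 3 genes, Wdfy1 alone had both wild-type arrays on the same side of all knockout-labelled arrays, in the contrast that chose it. The readings of Mogat1 and Tmem198 lay highest on wild-type replicate 1 and lowest on replicate 2. The upstream windows of these 2 genes, printed above, shared none of the searched motifs, and any link of sequence to these readings was not tested. The raw signal of wild-type replicate 1 over that of replicate 2 was 38.7 for Tmem198, 12.8 for Mogat1 and 3.12 for Wdfy1, against a ratio of 2.62 between the medians of the 2 arrays. Neither Tmem198 nor Mogat1 was detected on replicate 2, so their ratios and gaps compare a detected signal with a reading near background and are not exact folds. After normalisation the gap between these arrays was 3.93 log2 units for Tmem198, 2.62 for Mogat1 and 0.09 for Wdfy1, against a median gap of 0.18 over the tested probes. Of those probes, 5, with Tmem198 among them, had a gap at least as wide as that of Tmem198. A gap at least as wide as that of Mogat1 was found for 41, or 0.256%. Mogat1 itself failed the filter, and probes that failed were not counted. Some of them had wide gaps, such as the chromosome 1 gene Atic at 7.44 on replicate 1 against 10.56 on replicate 2. The 0.256% therefore does not say how rare the Mogat1 gap is among probes as dim. In the other 2 groups the gap of Tmem198 was 0.13 with ezetimibe and 0.19 in the knockout, near the median gaps of 0.14 and 0.15 there.

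**Figure D3:**
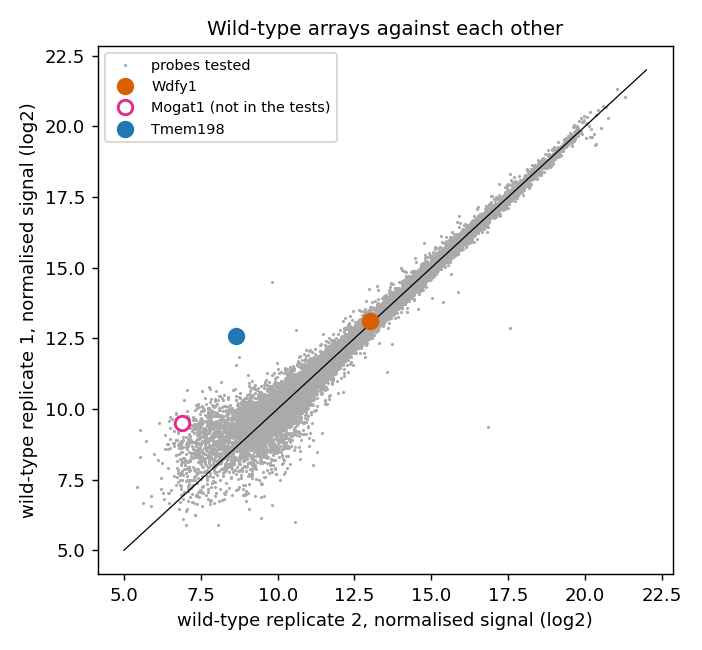
Normalised log2 signal of each tested probe on wild-type replicate 1 against wild-type replicate 2, with the line of equal signal and the 3 members marked. Wdfy1 lies on the line, and Tmem198, at 12.57 against 8.63, and Mogat1, at 9.50 against 6.88, lie above it.

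Fat is a tissue in which MOGAT1 is known to work, and its markers were set beside Mogat1. The adipocyte lipid-binding protein gene Fabp4 had log2 signals of 9.85 and 8.16 with ezetimibe, 14.56 and 8.31 in the knockout and 13.53 and 8.69 in wild-type. It was therefore bright on wild-type replicate 1 and brightest on knockout replicate 1, where Mogat1 was not detected. The mean log2 signal of the 5 fat genes was 8.71 and 8.49 with ezetimibe, 9.69 and 8.37 in the knockout and 9.68 and 8.26 in wild-type. Of the lipid droplet genes, Cidec was detected on none of the arrays and Plin1 on all. Plin1 read 10.57 and 10.55 with ezetimibe, 10.55 and 10.34 in the knockout and 10.48 and 9.77 in wild-type. Retn was detected on none. Lep, like Mogat1, was detected on wild-type replicate 1 only, with a signal-to-noise of 3.3. Its log2 signal there was 7.97, against 8.19 on ezetimibe replicate 2 and 8.18 on wild-type replicate 2. The part of carried-over fat in the Mogat1 reading was not tested.

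The genes around the members were then examined, since the 3 genes lie within 4.30 Mb of chromosome 1 in the RefSeq table of GRCm38.p6, with other genes between them. Of the 82 other genes with a probe within 5 Mb on either side of the members, 47 passed the filter. Limma called 0 of these 47 genes in any comparison. At an unadjusted p under 0.05, 1 of 47 was found for ezetimibe against plain chow, where 5.76% of all probes were. In the comparison of ezetimibe-fed knockout with wild-type 1 of 47 was found, or 2.13%, against 7.24% of all probes, and for knockout against wild-type it was 5 of 47, or 10.6%, against 8.99%.

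The differences of the neighbours centred near 0. The median difference of the 47 neighbours was -0.02 log2 units for ezetimibe-fed knockout minus wild-type and -0.04 for knockout minus wild-type, against 0.00 and 0.01 over all tested probes. In each of these comparisons 44 of 47 neighbours, 93.6%, differed by less than 0.5 log2 units, as did 88.0% and 87.2% of all probes. Of the 47 genes, 5 had all knockout-labelled arrays above the wild-type arrays and 8 had them below, which is 10.6% and 17.0%, against 9.61% and 9.38% of all probes.

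**Figure D4:**
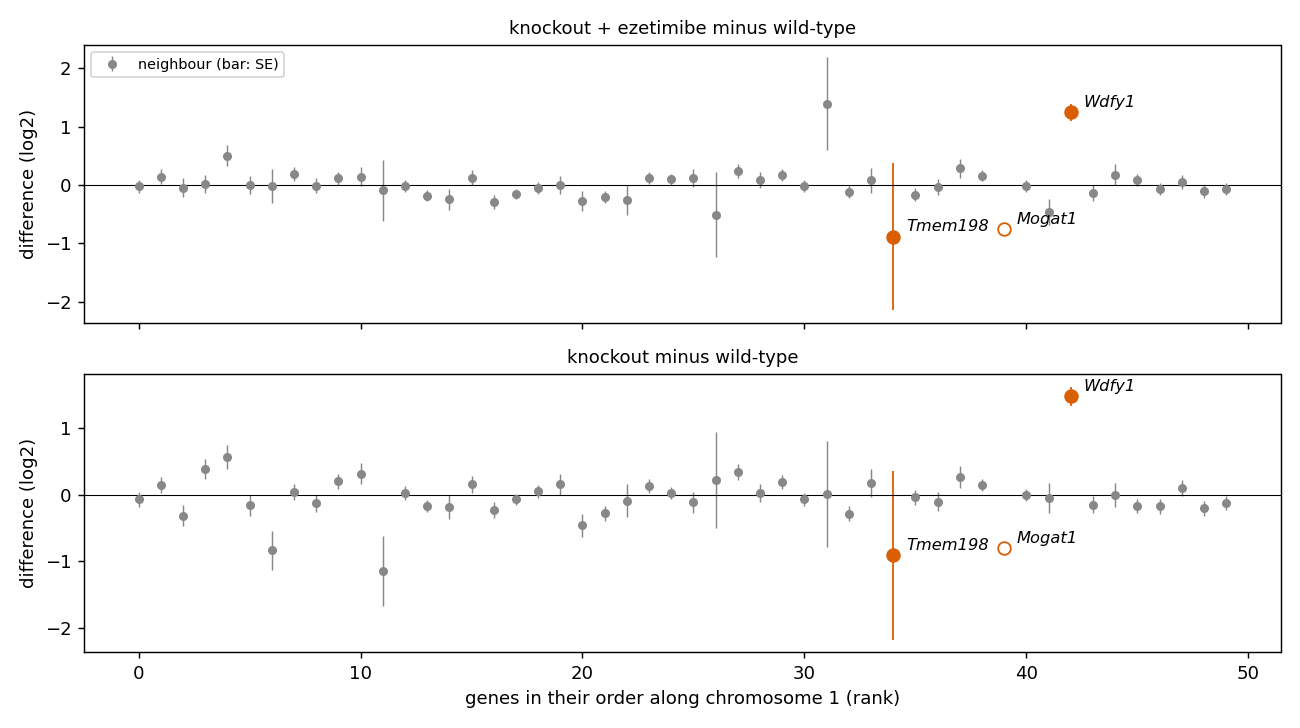
Difference from wild-type in log2 units of the 47 tested neighbours (grey, bars show the SE) and the 3 members (orange, Mogat1 open because it was not tested) in their order along chromosome 1. Wdfy1 stands at 1.25 with ezetimibe and 1.48 in the knockout, while 44 of 47 neighbours lie within 0.5 of 0 in each panel.

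The nearest tested genes on either side of each member differed from wild-type by less than 0.5 log2 units. Beside Wdfy1, the potassium channel subunit gene Kcne4 read 9.12 and 9.59 with ezetimibe, 9.62 and 9.92 in the knockout and 9.99 and 9.65 in wild-type. Its differences from wild-type were -0.46 with ezetimibe and -0.05 in the knockout. On the other side Cul3, a ubiquitin ligase scaffold, differed by -0.14 and -0.15.

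Mogat1 lies between Farsb, a phenylalanyl-tRNA synthetase subunit, with differences of 0.16 with ezetimibe and 0.14 in the knockout, and the acyl-CoA synthetase gene Acsl3, with -0.02 and -0.01. On wild-type replicate 1, where Mogat1 was high, Acsl3 read 13.03 against 12.91 on replicate 2, and Farsb 13.80 against 13.75. Tmem198 lies between the chondroitin polymerising factor gene Chpf, at 0.08 with ezetimibe and 0.18 in the knockout, and the inhibin alpha gene Inha, a Sertoli cell product, at -0.16 and -0.04. Chpf read 11.43 on wild-type replicate 1 against 10.85 on replicate 2, and Inha 15.33 against 15.47, so neither had a gap as wide as that of Tmem198. Chpf, like Acsl3, was highest of all arrays on wild-type replicate 1 and lowest on replicate 2, as Tmem198 was, but over a far smaller range. Farsb and Inha did not have this order. None of these 6 genes passed.

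Among tested neighbours whose groups did not overlap, the largest differences belonged to Mreg, Cyp27a1, Stk16 and Usp37, none of which passed. Mreg is a melanosome transport gene and Cyp27a1 the sterol 27-hydroxylase of the mitochondrion. Stk16 is a kinase gene and Usp37 a deubiquitinase gene. Neighbours that failed the filter were not ranked. Mreg read 9.14 and 9.46 with ezetimibe, 9.35 and 9.37 in the knockout and 8.61 and 8.98 in wild-type. Its differences from wild-type were 0.50 with ezetimibe (limma adjusted p = 0.669) and 0.57 in the knockout (adjusted p = 0.513). Cyp27a1 read 12.18 and 12.37 with ezetimibe, 12.28 and 11.88 in the knockout and 12.52 and 12.57 in wild-type. It differed by -0.27 (limma adjusted p = 0.782) and -0.46 (adjusted p = 0.545). Stk16 differed by 0.24 and 0.34, and Usp37 by -0.29 and -0.23. The other tested neighbours beyond 0.5 in either comparison, chosen after their values were seen, were not detected on all arrays. With ezetimibe these were Speg, detected on 2, at 1.40 and Zfand2b, detected on 4, at -0.50. In the knockout they were Gpbar1 and Xrcc5, detected on 3 each, at -1.15 and -0.84.

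Genes with a profile like that of Wdfy1 were sought over the 6 arrays among 1427 genes whose group means spanned at least 0.5 log2 units. The 5 with the highest Pearson correlation were AI661453, Egfl7, Efcab7, Olfr1404 and Tfeb, with r of 0.98 to 0.99, given as a description because 6 arrays of shared groups carry it. Efcab7, named for its calcium-binding EF-hand domain, read 14.54 and 14.37 with ezetimibe, 14.57 and 14.74 in the knockout and 13.76 and 13.89 in wild-type. Tfeb, a transcription factor of lysosome genes, read 10.68 and 10.63 with ezetimibe, 10.88 and 10.76 in the knockout and 10.12 and 10.05 in wild-type. Only Olfr1404 of the 5 is on chromosome 1, outside the window around the members. AI661453 and Tfeb are both on chromosome 17, starting at bases 47436639 and 47737037. Egfl7 is on chromosome 2 and Efcab7 on chromosome 4.

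For Tmem198 the 5 closest of the same genes were Tmem252, Rabgef1, Eif2ak4, 2310002L09Rik and Fam98a, with r of 0.77 to 0.91. All 5 were highest on wild-type replicate 1. The Rab5 exchange factor gene Rabgef1 read 10.84 and 10.73 with ezetimibe, 10.57 and 10.76 in the knockout and 11.77 and 10.88 in wild-type. Tmem252 read 9.77 and 9.82 with ezetimibe, 9.43 and 9.84 in the knockout and 11.20 and 9.82 in wild-type. Their gaps between the wild-type arrays were smaller than that of Tmem198, and none of the 5 is on chromosome 1.

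The partners and relatives of the members were taken as 4 lists, with the members left out. Of 28 genes with FYVE or WD repeat domains or roles in endosomal phosphoinositides, 23 had a probe and 15 were tested. Limma called 0 of them in each comparison, with an unadjusted p under 0.05 for 1, 1 and 2 genes for ezetimibe against plain chow, ezetimibe-fed knockout against wild-type and knockout against wild-type. In the same order, 5.76%, 7.24% and 8.99% of all probes had an unadjusted p under 0.05. The median difference of the tested genes of this list was 0.08, 0.08 and 0.09, against 0.00, 0.00 and 0.01 over all probes. Rab5a, a small GTPase of early endosomes, differed by -0.19 with ezetimibe against plain chow, by -0.64 from wild-type with ezetimibe and by -0.45 in the knockout (limma adjusted p = 0.918, 0.521 and 0.524). Its relative Rab5b, detected on 3 arrays, differed the other way, by 0.78, 0.94 and 0.16 in the same order. The FYVE domain gene Zfyve19 differed by 0.28, 0.00 and -0.28 and Zfyve27 by -0.25, 0.12 and 0.36. The family member Wdfy2 was detected on 1 array and not tested.

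Of 21 genes of TLR3, TLR4 and TRIF signalling, 14 had a probe, and 6 of these passed the filter and were tested. Limma called 0 of 6 in each comparison, with 0, 0 and 1 at an unadjusted p under 0.05, against 5.76%, 7.24% and 8.99% of all probes. The median difference of the 6 genes was -0.04 for ezetimibe against plain chow, 0.20 for ezetimibe-fed knockout minus wild-type and 0.24 for knockout minus wild-type. Over all probes it was 0.00, 0.00 and 0.01. The transcription factor gene Irf3, a target of this route, differed by -0.07, 0.22 and 0.29, and the co-receptor gene Cd14 by 0.03, 0.47 and 0.43 in the same order of comparisons. Map3k7, the kinase TAK1, differed by 0.07, 0.26 and 0.20, and the NF-kappa-B subunit gene Rela by 0.00, -0.14 and -0.14.

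Genes of glyceride acylation and breakdown, the pathway of MOGAT1, had 25 of 31 genes with a probe and 18 tested, of which limma called 0 in each comparison. At an unadjusted p under 0.05 there were 1, 0 and 1 genes, against 5.76%, 7.24% and 8.99% of all probes. The median difference was 0.03 for ezetimibe against plain chow, 0.04 for ezetimibe-fed knockout minus wild-type and 0.03 for knockout minus wild-type. Over all probes it was 0.00, 0.00 and 0.01. Dgat1 and Dgat2, which add the last acyl chain of triglyceride, were detected on all arrays. Dgat1 read 14.05 and 13.97 with ezetimibe, 13.96 and 14.04 in the knockout and 13.88 and 13.75 in wild-type, and Dgat2 read 14.49 and 14.78 with ezetimibe, 14.67 and 14.67 in the knockout and 14.78 and 14.86 in wild-type. The related acyltransferase gene Mogat2 was detected on 1 array. The phosphatidate phosphatase gene Lpin1 differed by 0.31 with ezetimibe against plain chow (limma adjusted p = 0.838), by -0.02 from wild-type with ezetimibe and by -0.33 in the knockout (adjusted p = 0.535), and the lipid droplet gene Plin5 by -0.38, -0.50 and -0.11.

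LRP6 and canonical Wnt genes had 27 of 33 genes with a probe and 15 tested. Limma called 0 in each comparison, with 1, 0 and 1 at an unadjusted p under 0.05, against 5.76%, 7.24% and 8.99% of all probes. The median difference was -0.03 for ezetimibe against plain chow, 0.05 for ezetimibe-fed knockout minus wild-type and 0.06 for knockout minus wild-type. Over all probes it was 0.00, 0.00 and 0.01. Dvl3, a dishevelled scaffold, differed by -0.55, 0.05 and 0.60 (limma adjusted p = 0.811, 0.965 and 0.505). Lef1, a transcription factor of the pathway detected on 4 arrays, differed by 0.71, -0.07 and -0.78, and the Wnt acyltransferase gene Porcn, also detected on 4, by -0.81, -0.31 and 0.50. The receptor gene Fzd7 differed by -0.11, 0.07 and 0.17 and Axin1 by -0.03, 0.13 and 0.16. Tmem198b, a relative on another chromosome, was detected on 1 array, with log2 signals of 9.54 and 9.21 with ezetimibe, 9.39 and 9.51 in the knockout and 9.58 and 9.47 in wild-type.

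**Figure D5:**
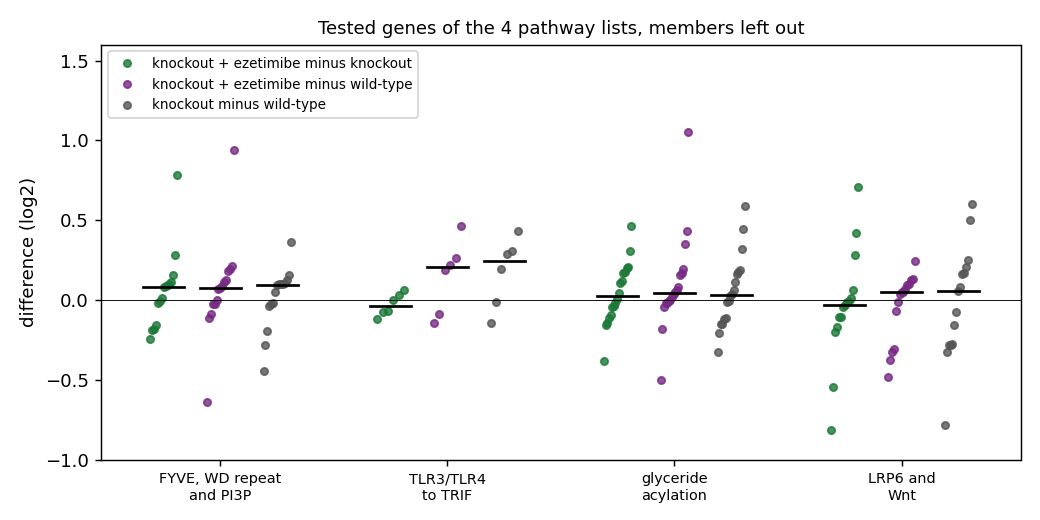
Differences in log2 units of the tested genes of the 4 lists, members left out, for ezetimibe-fed knockout minus knockout, ezetimibe-fed knockout minus wild-type and knockout minus wild-type, each point a gene and each bar the median. The medians lie between -0.04 and 0.24, and 0 genes were called.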

How the data were processed

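The deposited values were, per the file headers, a raw intensity for every probe on every array and a score of signal over noise. The sources used here give no scanner, software or build. The authors' deposited processed intensity equals the raw signal over 1 constant per array, on a linear scale, and was tried in place of the raw signal. No sample column stayed unused (0).

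Raw signals were taken as log2 and quantile-normalised with limma 3.58.1 in R 4.3.3, fitted with 1 mean per group over all 6 arrays (lmFit, eBayes) and adjusted by Benjamini-Hochberg over all 16015 tested probes at a threshold of 0.05. The fit was run on simulated data with planted shifts larger than the Wdfy1 difference. That run does not show how well smaller differences are found. An exact permutation test of 2 against 2 arrays reaches p = 0.333 at the lowest, and limma's p-values are given instead. Precision is limited by how few arrays there are, with a median SE of 0.14 log2 units for a difference.

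Platform symbols were checked through gene identifiers against RefSeq (GRCm38.p6), which changed 0; 14411 probes had 1 symbol, 247 several and 18354 none. The brightest tested probe stood for each gene. Members, lists and the window were chosen with earlier results of these data known. Named genes are the members and their nearest tested neighbours. Also named are the 4 non-overlapping neighbours of largest difference whose brighter group had the probe detected on each array. From each list some, not all, of the 4 of lowest p per comparison are named, and then the 5 most alike. Others are said to be chosen later, or are family relatives and tissue markers.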

Additional observations from a re-analysis of the deposited data

How the results depend on the processing

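The difference of Wdfy1 from wild-type kept its direction under every run that could change it. These were normexp background correction, median scaling, the authors' processed values, fits to the compared groups only, and each array left out in turn. Stricter or no filtering of dim probes and a prior variance trended on intensity were also run. They leave the group means of a member as they are, so they could not move this difference. Over all runs the Wdfy1 difference was 1.08 to 1.41 with ezetimibe and 1.40 to 1.59 in the knockout, and 1.27 to 1.45 with both knockout groups together. With each array left out in turn these ranges were 1.08 to 1.41, 1.40 to 1.55 and 1.27 to 1.44. For ezetimibe against plain chow Wdfy1 ranged from -0.39 to -0.067 (limma adjusted p from 0.793 to 1) and was not called.

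Mogat1 and Tmem198 kept their direction from wild-type except without wild-type replicate 1. Without that array Mogat1 was 0.55 with ezetimibe, 0.51 in the knockout and 0.53 with both groups together, and Tmem198 was 1.07, 1.04 and 1.06. Without wild-type replicate 2 Mogat1 was -2.14, -2.19 and -2.17 and Tmem198 -2.86, -2.89 and -2.88, and these pairs are the extremes over the arrays left out. For ezetimibe against plain chow, the leave-one-out values ran from -0.28 to 0.37 for Mogat1 and from -0.065 to 0.12 for Tmem198. There the sign of Mogat1 turned without knockout replicate 2 (-0.022) or ezetimibe replicate 1 (-0.28), and that of Tmem198 without knockout replicate 1 (-0.065) or ezetimibe replicate 2 (-0.036). Mogat1 was undetected on all 4 arrays of this contrast, so its values there are readings at background and their signs have no meaning.

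Of the chromosome 1 neighbours, limma called 0 under each alternative, windows of 2 and 10 Mb included. The 2 probes called among all probes became 4 in the knockout and 5 with both groups together when probes had to be detected on all arrays, and 0 with no filter on dim probes in each comparison with wild-type. With an intensity trend they became 31 in the knockout, 26 with ezetimibe, 29 with both groups together and 14 for ezetimibe against plain chow, where 0 were called without it. With the compared groups only they became 0 in the knockout and 1 with ezetimibe. With single arrays left out the counts ran from 0 to 2 in the knockout and with ezetimibe and from 0 to 83 with both groups together, 83 without wild-type replicate 1, and the cause was not tested. Under median scaling the median difference of all probes was 0.11 for knockout minus wild-type, against 0.01 as reported. No paired analysis was possible because the labels give the groups no shared replicate numbers. Signals near background limit Mogat1 on 5 arrays and Tmem198 on wild-type replicate 2.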
